A study of Gallus gallus with 2 samples.

Results

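The deposited table of all loci was searched for small nucleolar RNAs, spliceosomal RNAs and their relatives, which were chosen by name (symbols beginning with *SNORA*, *SNORD*, *SCARNA* or another sno prefix, a U followed by digits, RNU, RNase_, 7SK or RMRP, with no merged names). The search gave 287 loci of 22848, under 153 symbols, after 5 loci with a failed estimate were left out. A total of 105 were box C/D snoRNA loci, 68 box H/ACA snoRNA loci, 70 spliceosomal RNA loci, 15 small Cajal body RNA (scaRNA) loci including *snoU85*, 9 loci of 7SK RNA, 15 loci with other sno names and 2 box C/D snoRNA loci with a U name (*U3* and *U54*). *U7*, the RNA of RNase MRP and *RNUXA* made up the rest. *RNUXA* is an older name of *PHAX*, which codes for a protein that exports snRNAs from the nucleus, and it was therefore a member by its name only.

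RNA came from back skin of female Lueyang chickens at 16 weeks of age, with white skin (WS) or black skin (BS). Each library held RNA pooled from 3 of the 5 birds sampled per color, so there was 1 library per color, the spread between birds is not known and no test was possible. Expression was given by the authors as FPKM, which the paper defines by exon length and by the mapped reads of the library. The deposited values of short loci followed an effective length, shorter than the span, as described below. Skin markers fixed for the check were present, with 5 of 7 keratinocyte markers and all 3 dermal fibroblast markers in the table above 0 (*KRT5* and *KRT75* were listed at 0). All 5 pigment cell markers were at least 2-fold higher in BS, with log2 fold changes from 1.45 (*OCA2*) to 2.34 (*MLPH*). Keratinocyte markers summed to 1804 FPKM in WS versus 1039 FPKM in BS, and 3 of the 5 above 0 were at least 2-fold lower in BS. Fibroblast markers summed to 7879 FPKM in WS versus 3858 FPKM in BS. Most of this sum was *COL1A2* (6495 FPKM and 2852 FPKM, -1.19), while *DCN* was within 2-fold (-0.64) and *LUM* was level (0.04). The part of any shift in tissue make-up in the values below was not tested. In bulk tissue, fewer cells of a type and less RNA per cell cannot be told apart.

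Small nucleolar RNAs guide the chemical modification of other RNAs. Box C/D snoRNAs direct the methylation of ribose and box H/ACA snoRNAs the conversion of uridine to pseudouridine, mainly in ribosomal RNA, and scaRNAs do the same for spliceosomal RNAs in the Cajal body. In vertebrates most of them are cut out of the introns of host genes, many of which code for ribosomal proteins and other parts of the translation machinery. U1, U2, U4, U5 and U6 RNAs form the major spliceosome and U11 and U12 RNAs belong to the minor one. 7SK RNA holds the elongation factor P-TEFb inactive, and RNase MRP RNA is part of the enzyme that cuts precursor ribosomal RNA. Most of these RNAs carry no poly(A) tail and are shorter than the fragments selected for these libraries, which were 350 ± 50 bp according to the protocol.

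Of the 287 loci, 48 (16.7%) were above 0 FPKM in at least 1 library, against 81.4% of all loci in the table. A total of 37 of the 287 lay on chromosomes and contigs on which every locus was listed at 0, most of them on chromosome Z and on unplaced sequence, and on the remaining sequences the share was 48 of 250 (19.2%). Above 0 in both libraries were 30 loci, 12 were listed at 0 in WS only and 6 in BS only. MicroRNA precursor loci, the other class of short named loci in the table, were above 0 at 44 of 422 loci (10.4%).

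The classes differed in how many loci had a value. Box H/ACA snoRNAs were above 0 at 24 of 68 loci (35.3%) and scaRNAs at 6 of 15 (40.0%), whereas box C/D snoRNAs were above 0 at 10 of 105 (9.52%). None of the 15 loci with other sno names had a value. Of 70 spliceosomal RNA loci, 4 were above 0 (5.71%). They were *U11*, a single *U1* locus of 21 and *U4* loci (2 of 5), while all 28 loci of *U6*, all 9 of *U5*, all 4 of *U2* and the locus of *U12* were listed at 0 in both libraries. The RNAs of *U1*, *U4*, *U6* and 7SK have near-identical copies in the genome, so reads of a single copy are uncertain. These shares describe the table and do not show that an RNA is absent from the skin.

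The share above 0 went with the span of the locus. Among loci that overlapped no other locus and lay on sequences with values, none of 12 members spanning under 100 bp was above 0, nor was any of 279 other named loci of that span. From 100 to 149 bp the shares were 3 of 34 members and 5 of 41 other named loci. From 150 to 249 bp they were 1 of 10 and 7 of 31, and from 250 to 399 bp both members (2 of 2) and 58 of 127 other named loci were above 0. The shortest locus with a value in the whole table was the microRNA locus *gga-mir-22*, with 100 bp, and the shortest member with a value was *U1*, with 125 bp.

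**Figure D1:**
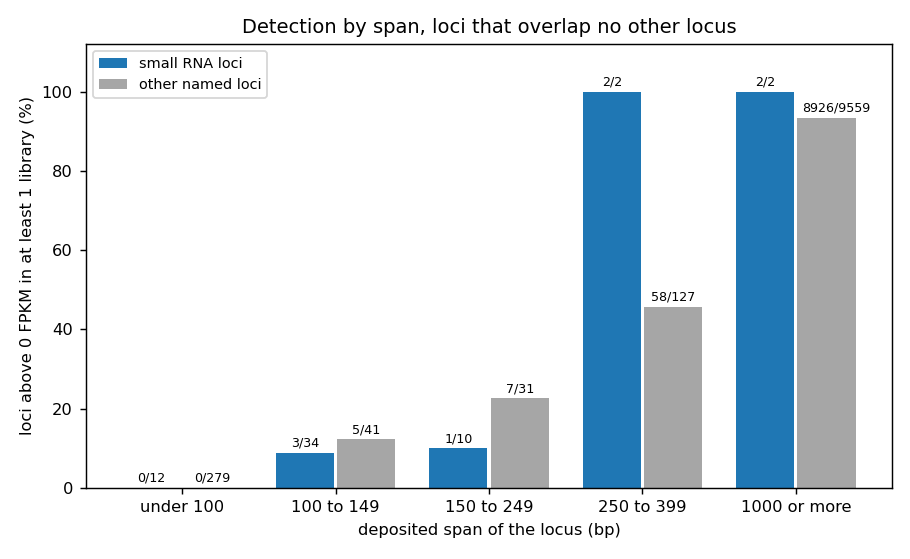
Share of loci above 0 FPKM in at least 1 library (y axis, percent) by deposited span in bp (x axis), for loci that overlap no other locus, with small RNA loci in blue and other named loci in grey and the counts above each bar. No small RNA locus of this kind spans 400 to 999 bp, so that range is not drawn. No locus under 100 bp had a value (0 of 12 and 0 of 279).

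Median spans of lone loci differed between the kinds of RNA, while the ranges overlapped in part (*U1* 122 to 165 bp). *U6* loci that overlapped no other had a median span of 104 bp, those of *U5* 115 bp, and those of *U1* 164 bp. Lone box H/ACA loci spanned 129 to 205 bp, with a median of 135 bp over 7 loci. Of 6 lone box C/D loci, the shortest spanned 57 bp (*SNORD77*), and the only 1 with a value was *SNORD89*, over 5135 bp.

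For most members the deposited span was not their own. Of the 48 loci above 0, 40 carried the same start and end as at least 1 other locus, and 31 shared them with at least 1 gene that has a symbol. All 54 such pairs had identical coordinates. *SNORA31*, for example, was placed on chromosome 1 from 172044304 to 172048444, which are also the deposited ends of *TPT1*, the gene of the translationally controlled tumor protein. Thus the spans of these 40 loci (1969 to 534151 bp, median 8690 bp) describe a region shared with other loci, and the length over which their FPKM was computed is not given. Coordinates are printed as deposited. Their genome build is unsettled, since the sources name galGal4 as well as another reference.

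The number of fragments behind a value could be worked out for the 6 short loci that stood alone. In loci without a name that overlap no other, FPKM values fell on whole multiples of a step set by the span, which is what 1 fragment is worth. Between 1000 and 3000 bp, 98.0% of 810 such loci in WS and 97.5% of 688 in BS were whole within 0.05 of a fragment. The step was fitted on loci of this same set, so these shares describe the fit and are not a separate check. For shorter spans it was extended span by span, from loci already near a whole number. No separate check at short spans was made in these data. The step followed an effective length, which for long spans is the span minus the mean fragment length. The steps imply 16.7 M fragments in WS and 19.9 M in BS, with mean fragment lengths of 334 bp and 322 bp. These totals reflect the scaling of the FPKM values. The aligned reads that the paper reports were closer to equal between the libraries. At a span of 1000 bp a single fragment was worth 0.0900 FPKM in WS versus 0.0740 FPKM in BS. At 200 bp it was worth 30.8 FPKM and 25.5 FPKM, and at 130 bp 327 FPKM and 259 FPKM. A high FPKM of a short locus therefore rested on few fragments.

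**Figure D2:**
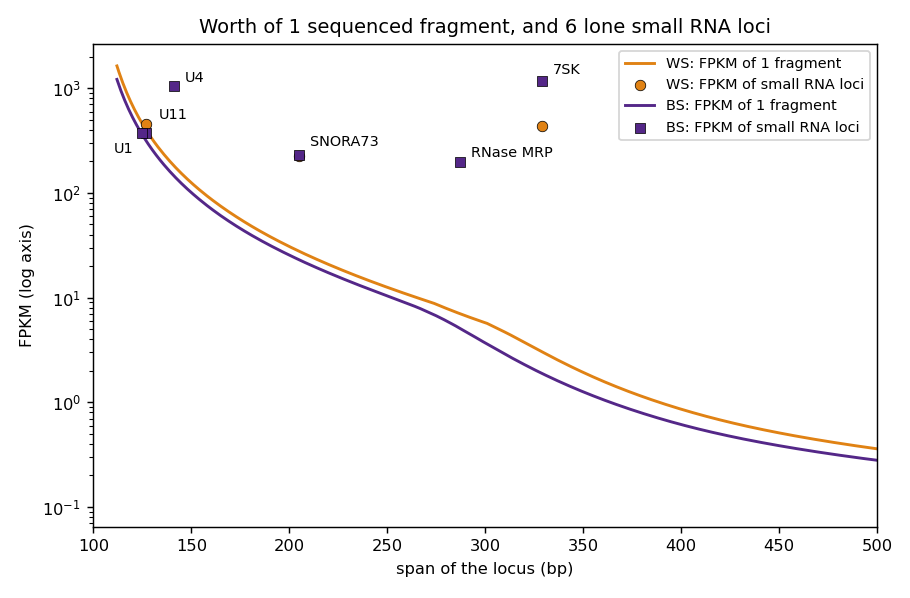
FPKM (y axis, log scale) against span in bp (x axis), with lines for the FPKM that 1 fragment is worth in WS (orange) and BS (purple) and points for the 6 short small RNA loci that overlap no other locus, drawn where above 0. *U1* and *U11* sit on the lines, with about 1 fragment, and 7SK stands far above them, with 144 fragments in WS and 619 in BS.

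Of the 6 short lone loci, that of 7SK RNA held the most fragments. XLOC_014126, on chromosome 3 from 91173170 to 91173499, stood at 438 FPKM in WS versus 1169 FPKM in BS, which is 2.67-fold. These values correspond to 144 fragments in WS (95% exact Poisson interval 121 to 170) and 619 in BS (571 to 670), so the difference between these libraries was beyond counting error. Scaled to the fragment totals implied by the steps the ratio was 3.60, because 1 fragment at this span was worth 3.04 FPKM in WS and only 1.89 FPKM in BS. With the aligned reads of the paper, which were closer to equal, this ratio would differ. The span of 329 bp lies close to the mean fragment lengths of 334 bp in WS and 322 bp in BS. There the worth of 1 fragment differed more between the libraries (1.61 times at 330 bp) than at 1000 bp (1.22 times). The ratio of 3.60 takes no account of this, and the part of fragment length in it was not tested. Intervals here and below cover counting error only, not the difference between birds. The second 7SK locus with a value, in a span of 293744 bp on chromosome 1 that holds *ATF4* and *TAB1*, was listed at 0 in WS and had 2.04 FPKM in BS. The remaining 7 loci of 7SK were at 0.

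*RNase_MRP*, on chromosome 4 from 41231914 to 41232201, was listed at 0 in WS and stood at 197 FPKM in BS. The BS value corresponds to 38.7 fragments (interval 27.7 to 53.3), and a count of 0 in WS allows up to 21.1 FPKM, the worth of 3 fragments. These 3 fragments are a 1-sided limit, and the 2-sided interval used for the other counts reaches 3.69 fragments for a count of 0. The BS value of *RNase_MRP* lay well above both limits. At its span of 287 bp 1 fragment was worth 7.04 FPKM in WS versus 5.10 FPKM in BS, and the part of fragment length in the difference was not tested. *U4* on chromosome 15 from 9656968 to 9657109 was listed at 0 in WS and stood at 1054 FPKM in BS, but this is 7.20 fragments (interval 2.81 to 14.4), and 0 in WS allows up to 549 FPKM. Another locus of *U4*, 465 bp away, was at 0 in both libraries.

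*U11*, the RNA of the minor spliceosome that recognizes the start of the intron, stood at 451 FPKM in WS versus 378 FPKM in BS. These values correspond to 1.14 and 1.21 fragments, so nothing can be said of its level at this depth. *U1* on chromosome 3 was listed at 0 in WS and stood at 376 FPKM in BS, which is 1.05 fragments, and 0 in WS allows up to 1369 FPKM. Both loci were marked by the authors as not tested. *SNORA73*, over 205 bp on chromosome 23, stood at 227 FPKM in WS versus 229 FPKM in BS, or 8.19 fragments (interval 3.45 to 15.8) and 9.96 fragments (4.80 to 18.4), and was level within counting error. Not all of these numbers are whole, and the reason was not tested.

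By fold change, 18 of the 48 loci were at least 2-fold higher in BS (background 4.61% of the 15020 loci that reached 1 FPKM in either library) and 8 at least 2-fold higher in WS (background 5.69%), with 22 within 2-fold. Each fold change is that of BS over WS after 1 FPKM was added to both, and all 48 loci reached 1 FPKM in a library. Of the 26 loci at least 2-fold apart, 18 were loci listed at 0 in 1 library. For these 18 the call followed from the filter and the pseudocount, since they reached 1 FPKM only in the other library. Listed at 0 in WS only were 12 of 48 (background 0.905%, and 0.307% of loci with a gene symbol) and in BS only 6 of 48 (background 0.679%, and 0.205% of loci with a gene symbol). Among the 30 loci above 0 in both libraries, 6 were at least 2-fold higher in BS (background 3.77%) and 2 in WS (background 5.09%). By any margin 11 were higher in BS and 19 in WS (background 56.3% higher in WS). Under the 3 other scalings of BS these counts were 13 or 14 and 17 or 16. At a span of 130 bp 1 fragment was worth 1.26 times as much FPKM in WS as in BS. Equal low counts of short loci would therefore read as higher in WS, but the part of this in the counts above was not tested. The median log2 fold change was -0.21, against -0.07 for all loci above 0 in both.

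The same shares were taken for other short loci and for the whole table. Of the 48 members, 54.2% were at least 2-fold apart, against 14.3% of 42 microRNA loci, 24.9% of 2321 unnamed loci spanning under 2000 bp and 10.3% of all loci. Listed at 0 in 1 library were 37.5% of the members, 4.76% of the microRNA loci and 3.40% of the unnamed loci. The groups are not alike under the 1 FPKM filter. In WS, 1 fragment was worth 327 FPKM at 130 bp, which passes it, and 0.0900 FPKM at 1000 bp, which does not. A locus listed at 0 in 1 library that passed was 2-fold apart by construction. The shares are therefore not a like comparison, and they describe 1 library against another without a test.

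**Figure D3:**
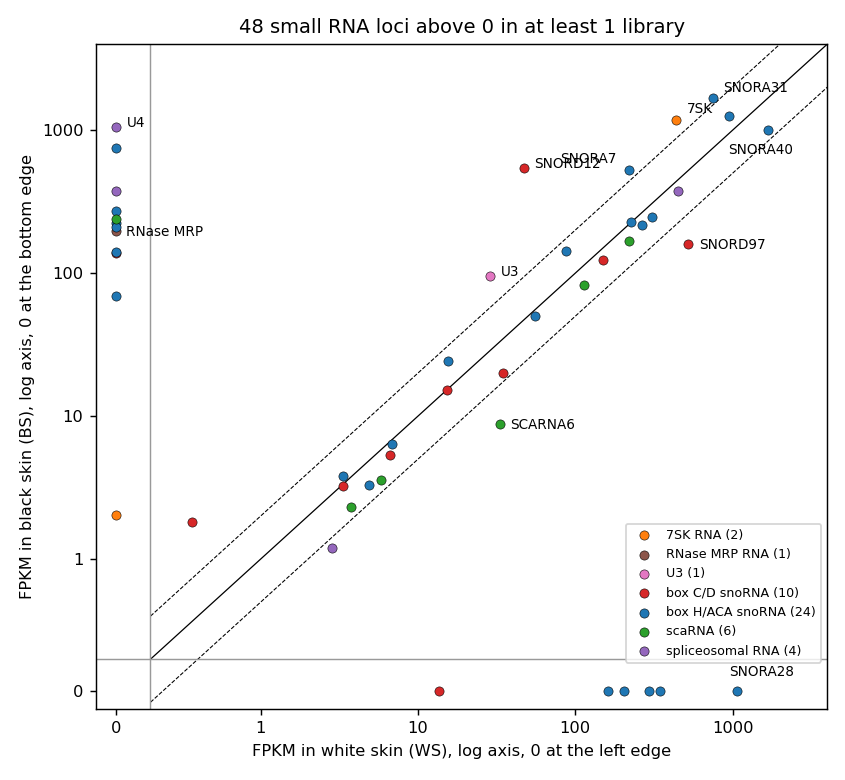
FPKM in BS (y axis) against FPKM in WS (x axis) for the 48 small RNA loci above 0 in at least 1 library, on log axes with values of 0 drawn at the edges and colors for the class of RNA. The solid line marks equal values and the dashed lines 2-fold. A total of 12 loci lie on the left edge (0 in WS) and 6 on the bottom edge (0 in BS).

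Among loci above 0 in both libraries, the highest FPKM values were those of 3 H/ACA snoRNAs, though 7SK RNA held far more fragments (144 and 619). *SNORA40* stood at 1683 FPKM in WS versus 999 FPKM in BS (log2 fold change -0.75). *SNORA31*, on the span of *TPT1*, stood at 745 FPKM in WS versus 1685 FPKM in BS (1.18). *SNORA21*, on that of the ribosomal protein gene *RPL23*, stood at 952 FPKM in WS versus 1252 FPKM in BS (0.39). By FPKM these 3 differed in direction, and *SNORA31* alone of them passed 2-fold. At 135 bp, the median span of lone H/ACA loci, *SNORA40* would hold 6.84 fragments in WS versus 5.10 in BS. *SNORA21* would hold 3.87 versus 6.39, and *SNORA31* 3.03 versus 8.60. On counts this low, no difference in level can be read for *SNORA40* or *SNORA21*.

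*SNORA7* was the other H/ACA snoRNA past 2-fold among loci with values in both, at 218 FPKM in WS versus 527 FPKM in BS (1.27). *SNORA62*, in *RPSA*, was at 87.8 FPKM in WS versus 144 FPKM in BS (0.71), and *SNORA53* at 15.5 FPKM and 24.3 FPKM (0.61). *SNORA71* (309 FPKM in WS, 245 FPKM in BS) and *SNORA72* (266 FPKM and 218 FPKM) were a little higher in WS by FPKM only. At 135 bp, the median span of lone H/ACA loci, *SNORA71* would hold 1.26 fragments in WS versus 1.25 in BS. *SNORA72* would hold 1.08 versus 1.11, so no difference in level can be read from either. Over the 13 H/ACA loci with values in both libraries, 7 were higher in BS and 6 in WS (8 and 5 under the scaling to equal totals without the most abundant loci), and the median log2 fold change was 0.01.

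The largest fold change among loci above 0 in both belonged to *SNORD12*, a box C/D snoRNA whose human counterparts lie in introns of the noncoding gene *ZFAS1*. Its locus XLOC_010284, on chromosome 20 from 6433539 to 6438123, stood at 47.0 FPKM in WS versus 546 FPKM in BS, 11.6-fold (3.51 on the log2 scale). A second locus of the symbol with the same span, XLOC_010484, stood at 0.368 FPKM in WS versus 1.82 FPKM in BS. At a pseudocount of 5 FPKM the log2 fold change of this second locus was 0.35 in place of 1.05. The other 4 loci named *SNORD12* share the span and were at 0. Both loci with values were thus higher in BS, at very different levels. Because their span is shared, the fragments behind these values and the counting error of the 11.6-fold are not known. For scale, the 6 lone box C/D loci had a median span of 68.5 bp, and no locus under 100 bp had a value. At 115 bp, 1 fragment was worth 1124 FPKM in WS and 850 FPKM in BS. Both *SNORD12* loci would lie under 1 fragment at that span, so it cannot hold for them. At 150 bp, well above that median, 1 fragment was worth 125 FPKM in WS and 101 FPKM in BS. The 11.6-fold can therefore not be read as a number of fragments of the snoRNA.

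*U3*, the box C/D snoRNA needed to cut the precursor of 18S ribosomal RNA, stood at 28.9 FPKM in WS versus 96.0 FPKM in BS (log2 fold change 1.70), on the span of *TEX14*, which was itself at 0.315 FPKM and 0.308 FPKM. *SNORD97* went the other way, at 520 FPKM in WS versus 160 FPKM in BS (-1.70). *SNORD89* (34.5 FPKM and 20.1 FPKM, -0.75), *SNORD15* (149 FPKM and 124 FPKM) and *SNORD49* (6.60 FPKM and 5.33 FPKM) were within 2-fold. *SNORD50*, whose human host is the noncoding gene *SNHG5*, was level at 15.3 FPKM and 15.2 FPKM. Apart from *SNORD89*, these loci lie on shared spans, so the fragments behind their values and fold changes are not known. *SNORD89* stands alone over 5135 bp, but its fragments were not worked out. At 115 bp, *SNORD97*, *SNORD15*, *SNORD49* and *SNORD50* would each lie under 1 fragment in both libraries, so that span cannot hold for them. The box C/D loci with values in both libraries were higher in WS in 6 of 8 cases (background 56.3% of loci above 0 in both), and in 4 of 8 under each other scaling of BS. The lengths behind most of these values are not known, so the part of the worth of 1 fragment in this direction was not tested.

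All 5 scaRNAs with values in both libraries were lower in BS by FPKM (background 56.3% of loci above 0 in both were higher in WS). They stayed lower under the other scalings, but these moved BS by factors of 1.05 to 1.10 only. The worth of 1 fragment was higher in WS than in BS, by 1.21 times at 200 bp and 1.61 times at 330 bp. The lengths behind the scaRNA values are not known, so the part of this in their direction was not tested. *SCARNA6* was past 2-fold, at 33.1 FPKM in WS versus 8.86 FPKM in BS (-1.79). *SCARNA7* stood at 114 FPKM in WS versus 83.2 FPKM in BS (-0.45), and *SCARNA14* at 219 FPKM and 168 FPKM (-0.38). *SCARNA13* (5.80 FPKM and 3.57 FPKM) and *snoU85* (3.78 FPKM and 2.31 FPKM) were low in both. The sixth, *SCARNA24*, within the span of the DNA polymerase gene *POLA1*, was listed at 0 in WS and at 240 FPKM in BS. Apart from *SCARNA13*, the scaRNAs with a value lie on shared spans, and the fragments behind their values are not known. *SCARNA13* stands alone over 4525 bp, but its fragments were not worked out, and whether its value is that of the scaRNA alone was not tested. The second *U4* locus with a value, on the span of *DENND1A*, stood at 2.84 FPKM in WS versus 1.19 FPKM in BS (-0.81), and it passed 2-fold (-1.19) with a pseudocount of 0.1 FPKM.

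Of the 18 loci listed at 0 in 1 library, 11 were H/ACA snoRNAs. At 0 in WS, apart from those named above, were both *SNORA3* loci (752 FPKM and 223 FPKM in BS), *SNORA44* (271 FPKM), *SNORA69* (211 FPKM), *SNORA5* (141 FPKM), *SNORD94* (138 FPKM) and the second *SNORA62* locus (69.7 FPKM). At 0 in BS were *SNORA28* (1058 FPKM in WS), *SNORA20* (344 FPKM), *SNORA29* (295 FPKM), *SNORA36* (204 FPKM), *SNORA16* (161 FPKM) and *SNORD17* (13.7 FPKM). No fold is given for these loci. If an H/ACA snoRNA had the median span of lone H/ACA loci, 135 bp, 3 fragments would be worth 738 FPKM in WS versus 588 FPKM in BS, and 9 of the 11 lay at or under that limit in the library with a value. *SNORA28* and the higher *SNORA3* locus lay above it. At 135 bp 1 fragment was worth 246 FPKM in WS and 196 FPKM in BS, so these 2 values would also rest on few fragments. Their counting intervals were not worked out, so passing the limit does not place them beyond counting error. Of the 11, 4 would lie under the worth of 1 fragment, so that span cannot hold for all of them. By the same yardstick 9 of the 12 H/ACA loci on shared spans with values in both libraries would hold at most 3 fragments in each, and 6 of these would lie under 1 fragment. *SNORA7* would hold 0.888 fragments in WS versus 2.69 in BS, and *SNORA31* 3.03 versus 8.60.

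Of 4 regions with more than 1 small RNA locus listed at 0 in a single library, 3 had them at 0 in the same library. With 12 members at 0 in WS only and 6 in BS only, neighbors can match without any link, and no expected share was worked out. Among the loci below, *SNORA20*, *SNORA29*, *SNORD17* and the lower *SNORA3* locus were marked by the authors as not tested. *SNORA20* and *SNORA29*, on the span of the chaperonin gene *TCP1*, were both at 0 in BS. *SNORA36* and *SNORD17*, on the span of *DKC1*, were both at 0 in BS as well, and both *SNORA3* loci of *RPL27A* were at 0 in WS. The exception was the region on chromosome 23 from 2854885 to 2857289, where *SNORA44* was at 0 in WS, 1 locus of *SNORA16* at 0 in BS and the other at 55.7 FPKM in WS versus 49.9 FPKM in BS. *SNORA73*, *U11* and these 3 loci lay within 381 kb of that chromosome.

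Of the genes on the same spans that reached 1 FPKM, all but 1 were within 2-fold. Of 49 genes with a symbol that shared a span with a member above 0, 43 reached 1 FPKM in either library. Among these, 1 was at least 2-fold higher in BS (background 4.61%, and 269 of 9727 other loci with a gene symbol). None was at least 2-fold higher in WS (background 5.69%, and 220 of 9727), and the median log2 fold change was -0.05. Staying within 2-fold is therefore not particular to these genes. The single gene past 2-fold was *CRH*, the corticotropin-releasing hormone gene, at 0.437 FPKM in WS versus 1.98 FPKM in BS, in a region of 534151 bp with *SNORD87* (3.35 FPKM and 3.23 FPKM). Ribosomal protein genes made up 6 of the 49 and shared spans with 8 members. *RPL23* stood at 10688 FPKM in WS versus 6228 FPKM in BS (-0.78), *RPSA* at 2937 FPKM and 2100 FPKM (-0.48), and *RPL39* at 2421 FPKM and 2330 FPKM (-0.05). *RPS3* and *RPL30* were lower in BS as well, and *RPL27A* was higher, at 707 FPKM in WS versus 962 FPKM in BS (0.44).

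Of 13 members above 0 in both libraries with a single such gene at 1 FPKM or more, 9 differed between the libraries in the same direction as the gene and 4 in the other, while under the 3 other scalings of BS 6 or 7 went the same way. The regions described next are examples of those where the values of member and gene lay far apart. Others were *SNORA21* (0.39) on the span of *RPL23* (-0.78) and *SNORA62* (0.71) on that of *RPSA* (-0.48). Several more members listed at 0 in 1 library, such as *SCARNA24* on the span of *POLA1*, also lay beside genes within 2-fold. *TPT1* stood at 5554 FPKM in WS versus 4061 FPKM in BS (-0.45), where *SNORA31* was higher in BS. *EIF4G2*, a translation factor, stood at 308 FPKM in WS versus 345 FPKM in BS (0.16), where *SNORD97* was 3.26-fold higher in WS. *EIF5* was at 144 FPKM in WS versus 169 FPKM in BS, where *SNORA28* was listed at 0 in BS. *ATG16L1*, an autophagy gene, was level at 26.6 FPKM in WS versus 25.5 FPKM in BS, where *SCARNA6* was 3.73-fold higher in WS. The exon models of these members are not given, so reads of a member and of an intron that holds it cannot be told apart. Strand is not given either.

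**Figure D4:**
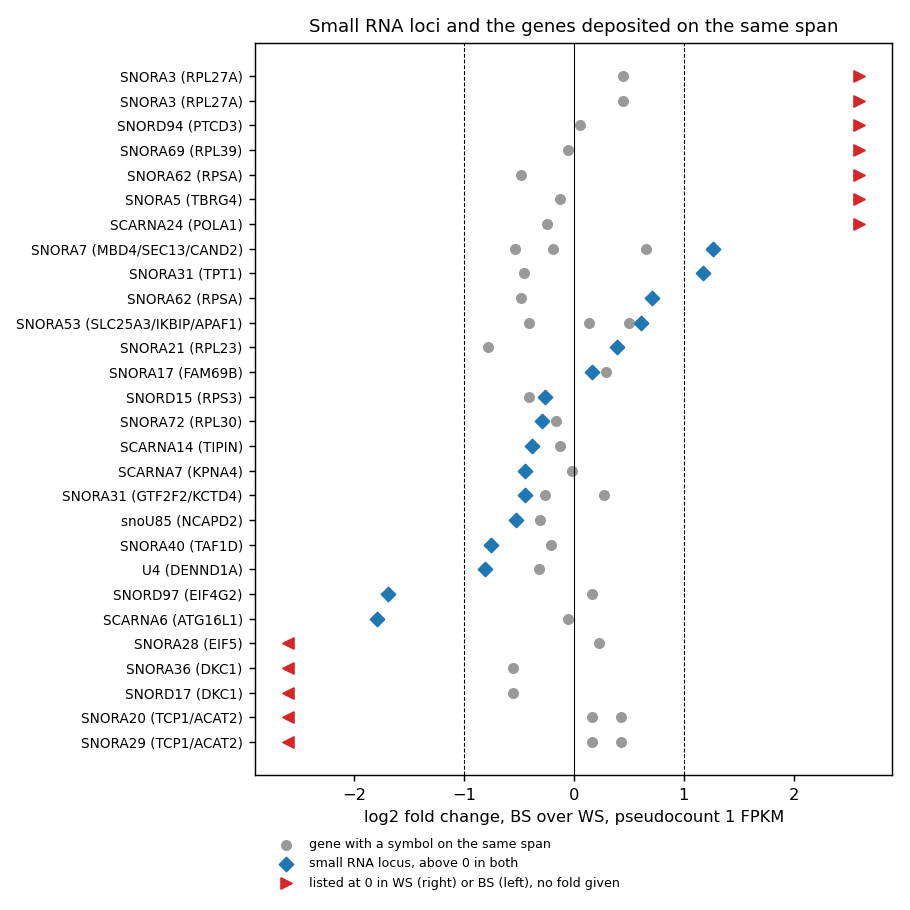
Log2 fold change of BS over WS (x axis, pseudocount 1 FPKM) for 28 small RNA loci (y axis, with the genes of the same span in brackets), with diamonds for loci above 0 in both libraries, grey points for the genes and triangles at the edges for loci listed at 0 in WS (right) or BS (left), for which no fold is given. The loci of *SNORD87* and 7SK in large regions and *U3*, whose partner is under 1 FPKM, are not drawn. The grey points drawn lie within the dashed lines that mark 2-fold. *CRH*, the only gene past 2-fold, lies in the region of *SNORD87* and is therefore not drawn.

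Genes of the proteins that bind, make and process these RNAs stayed within 2-fold between the libraries where measured. Of 156 symbols in 8 lists from textbook knowledge, 111 were in the table, 100 had at least 1 FPKM, and none of the 100 was 2-fold apart (background 10.3% of all loci, and 5.03% of other loci with a gene symbol), with log2 fold changes from -0.56 to 0.81. In the 6 H/ACA genes measured the median was -0.14. *DKC1*, the pseudouridine synthase itself and the host of *SNORA36*, had the lowest log2 fold change of all 100 (-0.56). It stood at 82.4 FPKM in WS versus 55.7 FPKM in BS. *GAR1* was at 33.4 FPKM and 37.5 FPKM and *NHP2* at 69.5 FPKM and 70.5 FPKM. In the 7 box C/D genes measured the median was 0.08. *NOP58*, a core protein, stood at 45.5 FPKM in WS versus 35.4 FPKM in BS, and *NHP2L1*, which binds the kink-turn of box C/D and U4 RNAs, at 56.5 FPKM and 69.6 FPKM.

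The 27 spliceosomal snRNP genes measured had a median log2 fold change of -0.06. The highest log2 fold changes were those of *LSM3* (60.4 FPKM in WS, 107 FPKM in BS, 0.81) and *LSM5* (472 FPKM and 793 FPKM, 0.75). Both belong to the ring that binds the end of U6 RNA. *SNRPB* (77.7 FPKM and 63.4 FPKM) and *SNRPC*, a protein of the U1 particle (90.6 FPKM and 101 FPKM), were close to level. For genes of snRNP assembly and the Cajal body the median was -0.03 over 12 genes, and *TGS1*, which forms the trimethyl cap of snRNAs, stood at 14.4 FPKM in WS versus 9.70 FPKM in BS (-0.52).

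For the proteins of RNase P and RNase MRP the median was 0.13 over 7 genes. Of these, 6 were higher in BS by any margin (background 6457 of 14782 loci above 0 in both), with *POP1* (0.02) and *RPP30* (0.06) close to level. *POP4* stood at 5.06 FPKM in WS versus 7.62 FPKM in BS (0.51) and *POP5* at 27.2 FPKM and 18.9 FPKM (-0.50). Of 7 symbols of the 7SK particle only 3 were in the table. All 3 genes were lower in BS (background 56.3% of loci above 0 in both), where 7SK RNA was higher. They were *LARP7*, which protects the end of 7SK RNA (13.0 FPKM in WS, 10.4 FPKM in BS, -0.30), the kinase *CDK9* (27.3 FPKM and 23.4 FPKM) and *CCNT2* (8.21 FPKM and 7.01 FPKM). The median was -0.15 over 26 genes of small RNA transcription and 3' end formation and -0.09 over 13 genes of intron debranching and the exosome.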

How the data were processed

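RNA-Seq libraries of WS and BS skin (1 per color, RNA of 3 birds each) were analysed. The authors deposited FPKM per locus, made with Cuffdiff on galGal4 by the submitters' notes or with Bowtie on another reference by the paper's methods. Aligner settings are not given in the sources used here. The deposited tables also hold the authors' log2 ratios, p values and q values, which were not used. Span is the deposited end minus the deposited start.

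Log2 fold changes used a pseudocount of 1 FPKM, and loci that reached 1 FPKM in either library were counted. With 1 library per group no test was run. The worth of 1 fragment was found by span from unnamed loci that overlap no other (WS and BS separately, down to 111 bp) and interpolated, and a count of 0 was taken to allow 3 fragments. The procedures were tested on simulated data.

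Members and gene lists were chosen with earlier results of these data known. Named loci were all members above 0 that are neither SNORA nor SNORD, and the 10 with the highest mean FPKM. Up to 8 per direction with the largest fold change and at least 5 FPKM were named too, and up to 6 per library listed at 0. Members sharing a host, their hosts and members of the protein lists were named as well. Some others were picked with their values in view. The alternatives tried were pseudocounts of 0.1 and 5 FPKM, no filter or 5 FPKM, 3 scalings of BS, sums over a symbol, and subsets of members. Only 4 of 153 member symbols were found in the RefSeq table of GRCg7b names, and no sequences were printed. Python 3.11.15, pandas 2.3.3, numpy 2.4.6, scipy 1.17.1 and matplotlib 3.10.9 were used.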

Additional observations from a re-analysis of the deposited data

How the results depend on the processing

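No paired analysis was possible because each color has 1 library, and for the same reason no library could be left out. The counts at least 2-fold higher in BS (18) and WS (8) stayed within 1.5 times under both other pseudocounts, both other filters, the 3 scalings and the sums over a symbol. For members that overlap no other locus above 0 they were 4 and 0, and the counts listed at 0 were 3 in WS and 0 in BS. For members above 0 in both libraries, an alternative chosen after seeing the data, they were 6 and 2. Without the 8 members marked as not tested, also chosen later, the count higher in WS was 5 and the count listed at 0 in BS was 3. The median of the 4 spliceosomal RNA loci (4.15) has no stable value. It was 5.81 and 3.0 with a pseudocount of 0.1 and 5 FPKM, 8.56 at a minimum of 5 FPKM, 8.10 with sums over a symbol, 8.56 for loci that overlap no other locus above 0 and -0.53 for the 2 above 0 in both, since it is set by loci listed at 0. The 3 scalings moved every value of BS by 0.08, 0.07 and 0.13 on the log2 scale, and the median of all members (-0.02) was then 0.04, 0.04 and 0.09. The table gives no length of exon model for members on shared spans, so the fragments behind their values could not be worked out.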

Other observations

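Other structural RNAs in the table fell outside the names searched. The nuclear RNA of RNase P, which trims the leader of transfer RNAs, is a lone locus (*RNaseP_nuc*) on chromosome 8 from 6937917 to 6938239, and it stood at 39.7 FPKM in WS versus 65.8 FPKM in BS. At its span of 322 bp these values correspond to 11.1 and 29.97 fragments. That span is close to the mean fragment lengths of the libraries, and the part of fragment length in the difference was not tested. A locus of 5.8S ribosomal RNA on a shared span stood at 4111 FPKM in WS versus 6881 FPKM in BS, 1.67-fold. Of 16 loci of 5S ribosomal RNA, 2 were above 0, of which 1 stood at 862 FPKM in WS and was listed at 0 in BS, and the other, alone on its span of 1823 bp, stood at 1.53 FPKM and 1.75 FPKM. The vault RNA (2 loci), Y RNA (3 loci) and telomerase RNA (1 locus) were listed at 0 in both libraries. *SCARNA15* appears only in a locus merged with *FSD2*, at 6.43 FPKM in WS versus 8.29 FPKM in BS.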
